A study of Mus musculus with 12 samples.

Results

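Tuft cells are a rare cell type of the gut lining, and 8 genes that mark them (Pou2f3, Gfi1b, Trpm5, Dclk1, Avil, Alox5ap, Il25 and Sh2d6) were followed through the life of colon tumors in mice. They were taken by symbol from the array probe sets that carry exactly 1 gene symbol, and they are 8 of the 19938 genes measured in this way. Each of the 8 is read by 1 probe set. Each of 6 mice gave 1 tumor with an early and a late biopsy taken by colonoscopy, and each biopsy was hybridised to 1 Affymetrix mouse gene array, 12 arrays in all. All the mice were F1 hybrids (SWR x C57BL/6) with the Apc Min/+ genotype, a mutation in 1 copy of a suppressor of Wnt signalling, and all had drunk 4% dextran sodium sulfate, which injures the colon lining, in 2 treatments around weaning. No untreated mouse, normal mucosa or mouse with intact Apc is among the samples, so the biopsies are compared only with each other. By the final pathology recorded with the late biopsies, the tumors of mice 1755, 1803 and 1805 were adenomas, which are benign, and those of mice 2201, 3407 and 3413 intramucosal carcinomas, cancers that stay within the mucosa. Mice 1755 and 3407 were female and mice 1803, 1805, 2201 and 3413 male, so mouse 1755 was the only female with an adenoma. Sex was not a term in any fit. Early biopsies have no reading of their own and are grouped here by the later pathology of the same mouse. Age was 94.3 ± 11.8 days at the first of these biopsies and 280 ± 82.5 days at the second (SD, n = 6 mice). At the late biopsy the mice with adenoma were 333 ± 86.4 days old and those with carcinoma 227 ± 35.2 days old (SD, n = 3 each), so age and pathology differ together.

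Tuft cells, also called brush cells, sense chemicals in the gut lumen with the signalling chain of taste cells, in which receptors act through a G protein and phospholipase C on the calcium-gated channel Trpm5. They release the cytokine Il25 and leukotrienes, which drive the type 2 immune response to parasites. The POU-domain factor Pou2f3 is required for them to form, and cells positive for Dclk1 have been followed in intestinal tumors of Apc mutant mice.

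Values are log2 intensities, so a difference of 1 is a doubling. Array medians over all probe sets lay between 7.62 and 7.80. The epithelial genes Epcam and Krt8, which mark the tissue the tumors come from, were at 12.83 ± 0.13 and 14.23 ± 0.11 in early biopsies and at 12.84 ± 0.079 and 14.20 ± 0.15 in late ones (SD, n = 6 each). Of the 11 epithelial genes measured, 8 differed by less than 0 late against early, beside 57.9% of all genes, with a median of -0.024 and 0 past the threshold. The submitters' sample numbers fall into a run from 155 to 255, the early arrays of mice 1755, 1803, 1805 and 2201, and a run from 319 to 379, the other 8 arrays. The 50 probe sets with the lowest numbers averaged 7.08 to 7.19 on arrays of the first run and 6.80 to 6.94 on those of the second. Only the pairs of mice 3407 and 3413 lie within 1 run, and differences within these pairs are given beside the results. In biopsies of whole tissue, fewer tuft cells and less RNA per tuft cell cannot be told apart. No measure of background was used here, so a flat gene of low intensity cannot be told apart from one that is not expressed.

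Late was compared with early biopsies over all 6 tumors with limma, mouse as a block and Benjamini-Hochberg adjustment over all 19938 genes. None of the 8 tuft cell genes passed an adjusted p of 0.05, and neither did any other gene (0% called). At an unadjusted p under 0.05, 3 of the 8 passed (Avil, Alox5ap and Pou2f3), beside 2940 of all genes, or 14.7%. The differences of the 8 genes had a median of -0.072, beside -0.020 for all genes, and 6 of the 8 lay below 0, beside 57.9% of all genes. Without mouse 1755 the median of the 8 was 0.0088, of the opposite sign, with 4 above and 4 below 0, beside a median of -0.025 for all genes. Avil and Trpm5 were lower in the late biopsy of 6 of 6 mice, as were 1033 of all genes, or 5.18%. None of the 8 was higher in 6 of 6 mice, as 516 genes, or 2.59%, were.

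**Figure D1:**
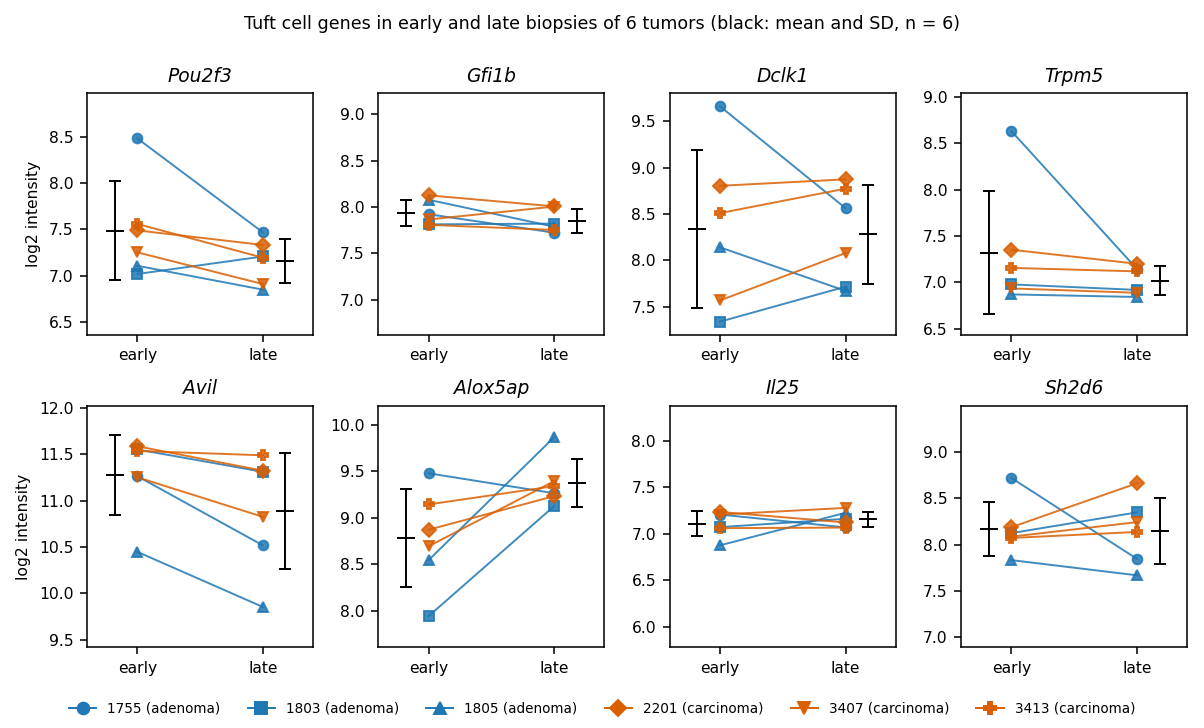
Each panel shows 1 tuft cell gene on the log2 intensity scale, with a line from the early to the late biopsy of each mouse (blue, late adenoma; orange, late carcinoma) and the mean and SD of 6 arrays in black. All panels span the same height, so slopes can be compared. Mouse 1755 starts highest for Pou2f3, Dclk1, Trpm5, Sh2d6 and Alox5ap, and Avil is lower late than early in every mouse.

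Among the regulators, Pou2f3 was at 8.48 in the early biopsy of mouse 1755 and at 7.02, 7.11, 7.49, 7.25 and 7.56 in those of mice 1803, 1805, 2201, 3407 and 3413. In the late biopsies, in the same order of mice, it was at 7.47, 7.21, 6.85, 7.33, 6.91 and 7.19. The early biopsy of mouse 1755 stood 0.92 above the next array, and the early and late values of the other mice overlapped. The late biopsies were 0.32 ± 0.14 lower on average (SE, n = 6 pairs; a 1.25-fold difference), and 5 of 6 mice were lower late, mouse 1803 being the exception. The limma p was 0.047 unadjusted and 0.331 after Benjamini-Hochberg adjustment. Without mouse 1755 the mean difference was -0.19 ± 0.23 (SD, n = 5), and within the pairs of mice 3407 and 3413 it was -0.34 and -0.36.

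Gfi1b, a transcriptional repressor also known from red cell and platelet precursors, varied little. Its 6 early values ran from 7.81 over a median of 7.89 to 8.13 and its 6 late values from 7.72 over 7.80 to 8.01. The ranges overlapped, and the late biopsies differed by -0.086 (95% interval -0.24 to 0.067, limma adjusted p 0.576). Mouse 1755 was not apart from the others for this gene.

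Trpm5, the cation channel at the end of the chemosensory chain, was at 8.63 in the early biopsy of mouse 1755 and between 6.84 and 7.35 on the other 11 arrays. The other early values were 6.98, 6.87, 7.35, 6.93 and 7.16 in mice 1803, 1805, 2201, 3407 and 3413. The late values in mice 1755, 1803, 1805, 2201, 3407 and 3413 were 7.14, 6.92, 6.84, 7.20, 6.89 and 7.12. The late value was below the early one in all 6 mice, but in mouse 1755 by 1.49 and in the others by at most 0.15, so the mean depends on 1 tumor. Over 6 tumors the difference was -0.30 ± 0.20 (SE, limma adjusted p 0.513), and without mouse 1755 it was -0.065 ± 0.050 (SD, n = 5). In the pairs of mice 3407 and 3413 it was -0.047 and -0.037.

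The RefSeq promoter table (build GRCm38.p6) holds 5 of the 8 genes, Gfi1b, Dclk1, Sh2d6, Trpm5 and Avil, with 6 start sites, since Dclk1 has 2. Pou2f3 is an octamer-binding factor, so both strands of each 300-base window (250 bases before to 50 after the start) were searched for the octamer ATGCAAAT and for its first 7 letters, ATGCAAA, which the octamer contains. The octamer was in 0 of the 6 windows and in 1.74% of 32851 promoters. The shorter word was in the window of Avil alone and in 4.63% of all promoters. The 250 bases before the start are shown for Trpm5, whose values lay closest to those of Pou2f3, and for Avil, with the matches in capitals (ATGCAAA 15 bases before the start and its reverse complement TTTGCAT 115 bases before it). A match describes the letters and is not a site of binding. The Trpm5 sequence is chr7:143094643-143094892 on the minus strand and the Avil sequence chr10:127000459-127000708 on the plus strand, both written 5′ to 3′.
Trpm5: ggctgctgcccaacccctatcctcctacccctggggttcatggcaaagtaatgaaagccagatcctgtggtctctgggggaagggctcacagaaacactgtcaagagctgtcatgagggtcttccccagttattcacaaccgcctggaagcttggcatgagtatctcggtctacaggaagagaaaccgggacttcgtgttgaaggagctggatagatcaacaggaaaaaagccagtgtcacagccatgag
Avil: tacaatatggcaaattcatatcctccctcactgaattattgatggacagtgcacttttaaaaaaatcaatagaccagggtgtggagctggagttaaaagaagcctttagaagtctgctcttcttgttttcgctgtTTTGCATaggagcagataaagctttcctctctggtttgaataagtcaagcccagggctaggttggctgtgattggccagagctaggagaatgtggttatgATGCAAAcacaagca

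Avil encodes advillin, an actin-binding protein of the villin family that is found in the tuft of these cells. It was at 11.26, 11.55, 10.45, 11.59, 11.25 and 11.54 in the early biopsies of mice 1755, 1803, 1805, 2201, 3407 and 3413. In the late biopsies of these mice it was at 10.52, 11.31, 9.85, 11.32, 10.82 and 11.49. Every tumor was lower late than early, mouse 1805 was the lowest at both times, and the 2 ranges overlapped. The late biopsies were 0.39 ± 0.095 lower on average (SE, n = 6 pairs; 95% interval of the difference -0.61 to -0.17; a 1.31-fold difference). Its limma p was the smallest of the 8 genes, 0.0039 unadjusted, and did not pass after adjustment (0.233). The differences were -0.75, -0.24 and -0.59 in the adenoma mice 1755, 1803 and 1805 and -0.26, -0.43 and -0.047 in the carcinoma mice 2201, 3407 and 3413. The pairs within 1 run of arrays, those of mice 3407 and 3413, thus include the smallest of the 6, and the 4 pairs across runs averaged -0.46 ± 0.25 (SD).

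Dclk1, a microtubule-associated kinase used to mark tuft cells in tissue and also made by neurons, varied more between tumors than between biopsies. The early values of mice 1755, 1803, 1805, 2201, 3407 and 3413 were 9.66, 7.34, 8.14, 8.80, 7.57 and 8.51, and the late values 8.56, 7.72, 7.67, 8.87, 8.08 and 8.77. The early biopsy of mouse 1755 was the highest and that of mouse 1803 the lowest of all 12 arrays. Dclk1 was higher late in 4 mice and lower in 2, and the mean difference was -0.058 ± 0.21 (SE, limma adjusted p 0.926). Without mouse 1755 it was 0.15 ± 0.38 (SD, n = 5), of the opposite sign, and in the pairs of mice 3407 and 3413 it was 0.51 and 0.26.

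Alox5ap encodes the protein that presents arachidonic acid to 5-lipoxygenase at the start of leukotriene synthesis, and it is made by tuft cells and by myeloid cells. Its early values were 9.48, 7.94, 8.54, 8.87, 8.69 and 9.14 in mice 1755, 1803, 1805, 2201, 3407 and 3413, and its late values 9.26, 9.13, 9.87, 9.23, 9.40 and 9.34. The late values lay close together apart from mouse 1805, the highest, and 5 of 6 mice were higher late, mouse 1755 being lower by 0.22. The late biopsies were 0.59 ± 0.20 higher on average (SE, n = 6 pairs; a 1.51-fold difference), with a limma p of 0.0197 unadjusted and 0.274 adjusted. Within the pairs of mice 3407 and 3413 the differences were 0.70 and 0.20. Of 11 neutrophil markers, 9 had a late minus early difference above 0 (median 0.88), beside 42.1% of all genes, and 0 passed the adjusted threshold. Their median was 1.52 in adenoma tumors (9 of 11 above 0, beside 47.2% of all genes) and 0.032 in carcinoma tumors (6 of 11, beside 39.8%). The mean level of the 11 genes was 7.77 to 9.15 in early and 8.52 to 10.13 in late biopsies. In 2 mice both readings went apart: in mouse 1755 the mean of the neutrophil genes was 0.82 higher late, and in mouse 2201, where Alox5ap was 0.36 higher late, it differed by -0.64. Over the 12 arrays, 2 from each mouse, Alox5ap and the mean of the neutrophil genes had a Pearson r of 0.74 and a Spearman rho of 0.60, and against the 12 macrophage and monocyte genes r was 0.27. Other lists lay on the same side late: 12 of 12 fibroblast and matrix genes (median 0.68) and 9 of 9 endothelial genes (median 0.90) had differences above 0 over all tumors, and 0 of them passed in that comparison. Alox5ap had an r of 0.63 with the mean of the fibroblast and matrix genes (rho 0.34) and of 0.64 with that of the endothelial genes (rho 0.46). The part of any of these cell types in the Alox5ap values was not tested.

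Il25, the cytokine by which tuft cells call on type 2 lymphoid cells, stayed within 6.88 to 7.28 on all 12 arrays. Its early median was 7.14 and its late median 7.14, and 4 mice were higher and 2 lower late. The difference was 0.045 (95% interval -0.12 to 0.21, limma adjusted p 0.818).

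Sh2d6 carries an SH2 domain, which binds phosphorylated tyrosine, and serves as a tuft cell marker. It was at 8.72 in the early biopsy of mouse 1755, and at 8.12, 7.83, 8.19, 8.09 and 8.07 in the early biopsies of mice 1803, 1805, 2201, 3407 and 3413. The late values, with mouse 1755 first, were 7.85, 8.35, 7.67, 8.66, 8.24 and 8.14. The early biopsy of mouse 1755 was the highest by only 0.058, the late one of mouse 2201 coming next, and early and late values overlapped. The mean difference was -0.020 ± 0.16 (SE, limma adjusted p 0.968) and without mouse 1755 it was 0.15 ± 0.23 (SD, n = 5).

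By final pathology, 25 of all genes (0.125%) passed for late against early in the adenoma tumors, 7 higher and 18 lower, and 0% in the carcinoma tumors, for the difference between both changes, and for carcinoma against adenoma at the early and at the late biopsy. The 8 tuft cell genes had 0 calls in each of these comparisons. At an unadjusted p under 0.05 in limma, 2 of the 8 (Avil and Alox5ap) passed in adenoma tumors, beside 18% of all genes. None of the 8 did in the carcinoma tumors, where 858 of all genes passed (4.3%), or for the difference of changes (1404 genes, 7.04%). The same held between pathologies in early (2384 genes, 12%) and late biopsies (2341 genes, 11.7%).

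In the adenoma tumors the late biopsies differed from the early ones by -0.53 ± 0.12 for Avil (limma adjusted p 0.116) and by 0.77 ± 0.29 for Alox5ap (limma adjusted p 0.239; SE of the limma fit, n = 3 pairs each). Trpm5 differed by -0.52, Dclk1 by -0.40, Pou2f3 by -0.36 and Sh2d6 by -0.27. Each of these 4 had its lowest difference in mouse 1755, and without that mouse they came to -0.044, -0.046, -0.034 and 0.030. In the carcinoma tumors Alox5ap was 0.42 ± 0.29, Dclk1 0.28 ± 0.25 and Sh2d6 0.23 ± 0.20 higher late, each in 3 of 3 mice (SE). Pou2f3 was 0.29 ± 0.21, Avil 0.25 ± 0.12 and Trpm5 0.079 ± 0.27 lower late, each in 3 of 3 mice, and Gfi1b and Il25 were mixed. These SEs come from 1 fit whose spread is shared by both pathologies, so a gene has the same SE in adenoma and carcinoma. They are not the spread of the 3 mice named. For Trpm5 the SD of the differences was 0.83 in the adenoma and 0.063 in the carcinoma pairs. The smallest limma adjusted p of the 8 genes there was 0.952. All 3 adenoma pairs lie across both runs of sample numbers. With the run as a term, 0 of all genes passed in adenoma tumors, Avil being at -0.50 and Alox5ap at 0.85. That term is estimated from the carcinoma pairs alone, mouse 2201 against mice 3407 and 3413. It rests on 1 mouse and cannot separate run from time in the adenoma tumors.

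**Figure D2:**
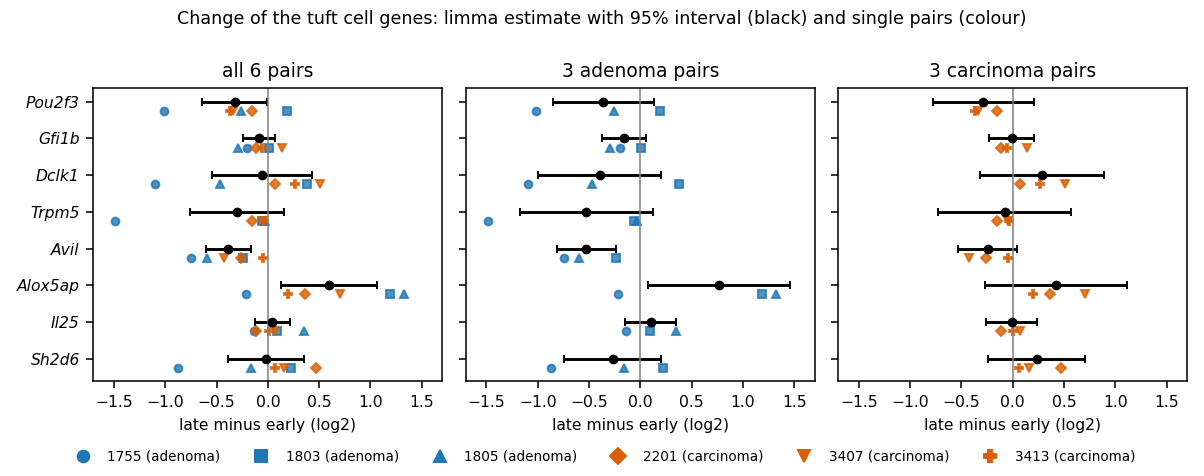
Late minus early differences on the log2 scale for the 8 tuft cell genes over all 6 pairs, the 3 adenoma pairs and the 3 carcinoma pairs; black points are limma estimates with 95% intervals and coloured points single mice. Avil lies below 0 in every mouse, and the widest spreads are those of Trpm5, Dclk1 and Alox5ap in the adenoma pairs.

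The difference between the changes was largest for Dclk1, with a carcinoma change 0.68 above the adenoma change (95% interval -0.17 to 1.53), followed by Sh2d6 with 0.50 (-0.17 to 1.17) and Trpm5 with 0.45 (-0.47 to 1.36). Without mouse 1755 these were 0.33, 0.20 and -0.035. All 8 adjusted p values in limma were 0.744 or more, and the ranges of single mice overlapped between pathologies for every one of the 8 genes. The intervals are wide enough to hold differences of over a doubling for Dclk1, Sh2d6 and Trpm5, so a p above the threshold does not show that both pathologies were alike.

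In late biopsies the carcinoma mice were above the adenoma mice by 0.65 for Avil (95% interval -0.073 to 1.38, limma adjusted p 0.458), with 11.21 ± 0.35 against 10.56 ± 0.73 (SD, n = 3 each). Dclk1 was 0.59 higher (8.58 ± 0.43 against 7.98 ± 0.50, adjusted p 0.676) and Sh2d6 0.39 higher (8.35 ± 0.28 against 7.95 ± 0.35, adjusted p 0.536). The values of both groups overlapped for all 8 genes, and all 6 late arrays lie in 1 run of sample numbers. In early biopsies Avil was 0.37 higher and Trpm5 0.35 lower in mice with later carcinoma, and none of the 8 genes had a limma adjusted p under 0.684. The early adenoma arrays all lie in the first run and 2 of the 3 early carcinoma arrays in the second. Without mouse 1755 the early Trpm5 difference was 0.22, of the opposite sign. The 11 epithelial genes were lower in carcinoma than in adenoma mice for 10 of 11 in early biopsies (median -0.24) and for 11 of 11 in late ones (median -0.24), with 0 past the adjusted limma threshold and 4 and 5 at an unadjusted p under 0.05. Of all genes, 39.9% were lower in early and 45.8% in late biopsies, and 12% and 11.7% had an unadjusted limma p under 0.05. The part of the epithelial share of a biopsy in the tuft cell values was not tested.

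The early adenoma biopsy of mouse 1755, the highest array for 4 of the 8 genes, was also the highest for some of the other tuft cell lists. Its array had the lowest median of all arrays (7.62, against 7.71 to 7.80). It also had the highest mean of the 50 lowest-numbered probe sets (7.19). Whether this bears on the values below was not tested. The biopsy was highest for 6 of 13 chemosensing genes and 3 of 3 eicosanoid genes, but for 3 of 23 other tuft cell markers (13.0%), near the share of all genes (10.8%). Of these 23 markers, 7 were highest in the late biopsy of mouse 1805 and 5 in the early biopsy of mouse 2201. Together with the 8, the lists of chemosensing, eicosanoid and other tuft cell markers hold 47 measured genes, and 16 of these (34.0%) were higher there than on any other array, beside 2148 of all genes. The 16 include the 4 that drew attention to this array. A gap of more than 1 above the next array was found for 7 of the 47 and for 42 of all genes (0.211%). On the other arrays the same count over the 47 was 1 for the early and 2 for the late biopsy of mouse 1805 and 0 on the remaining 9. Over all genes it was 77 and 115 for the early and late biopsies of mouse 1805, so that many wide gaps are not particular to mouse 1755. These counts, and the genes named from them in the next sentences, were chosen after their values were seen and carry no test.

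Beside Trpm5, the 7 genes were Rgs13, Gnat3, Bmx, Gnb3, Sh2d7 and Alox5. Rgs13, a brake on G protein signalling, was at 10.41 there and at 5.24 to 7.15 on the other 11 arrays. Gnat3, the taste G protein subunit gustducin, was at 6.66 against 4.54 to 4.97, and Gnb3, a beta subunit of the same chain, at 8.42 against 6.79 to 7.14. Bmx, a cytoplasmic tyrosine kinase, was at 7.72 against 5.69 to 6.14. Sh2d7, an SH2 domain gene, was at 8.08 against 6.16 to 6.82, and Alox5, the 5-lipoxygenase that Alox5ap serves, at 9.31 against 7.29 to 8.09. Gng13, the gamma subunit of the taste G protein, was also highest there, at 7.96 against 6.95 to 7.29. In the late biopsy of the same tumor Rgs13 was at 7.03 and Gng13 at 6.98, within the range of the other arrays. Il25, Gfi1b and Avil were not high in the early biopsy of mouse 1755, where they ranked 4, 5 and 7 of 12.

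Mast cell markers were high in the same biopsy. Of 12 measured, 8 were highest there and 6 of them by more than 1, among them Mcpt1 (13.23 against at most 11.43), a chymase of mucosal mast cells, and Fcer1a (10.36 against at most 7.82), the IgE-binding chain of the mast cell receptor. The mean level of the 12 genes was 9.95 there, at most 8.84 in the other early biopsies and 7.45 to 8.96 in the late ones. Tpsab1, Gata2 and Kit ranked 2, 4 and 6 of 12 arrays there, and Hdc, which makes histamine, had its lowest value of all arrays (8.31 against 8.90 to 11.38). Alox5, Ltc4s, Hpgds and Rgs13 are also made by mast cells. Over the 12 arrays the mean of the mast cell genes had an r of 0.86 with Pou2f3, 0.80 with Trpm5 and 0.74 with Dclk1, and of 0.40 with Avil. In the same order rho was 0.83, 0.73, 0.64 and 0.31. The 12 arrays include the early biopsy of mouse 1755, which is high for both kinds of genes. The part of mast cells in these values was not tested. Eosinophil, neutrophil and macrophage lists had 0, 1 and 0 genes highest in this biopsy.

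**Figure D3:**
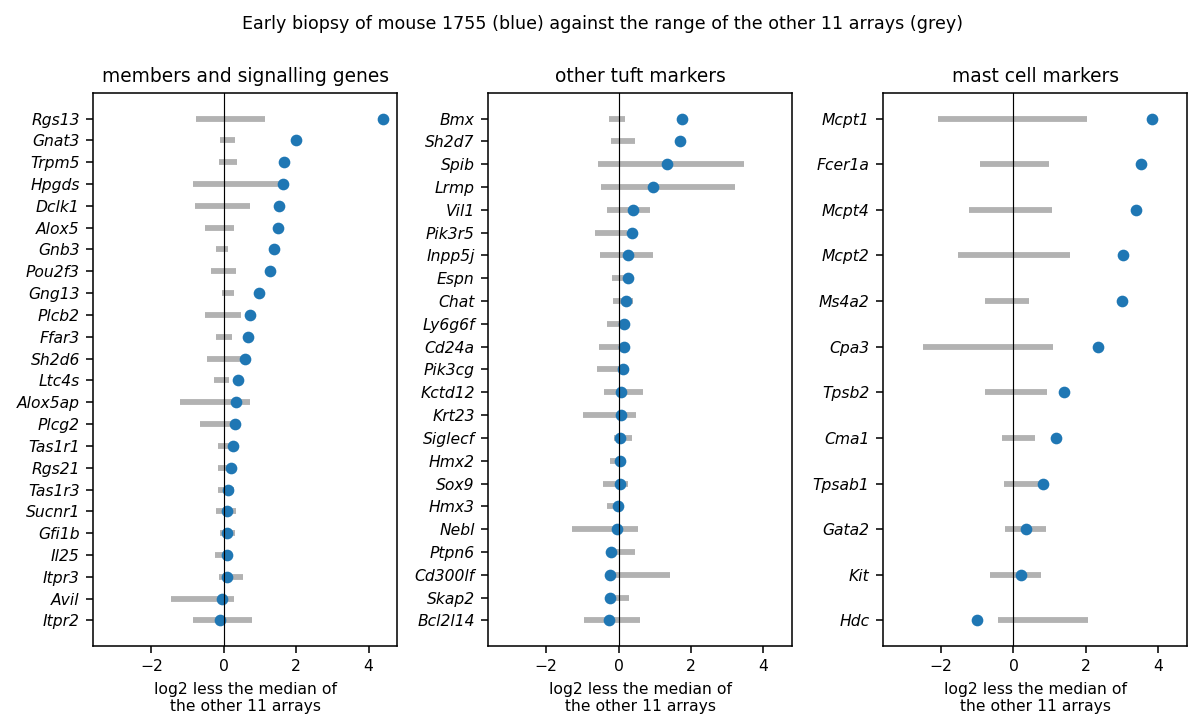
Blue points give the early biopsy of mouse 1755 and grey bars the range of the other 11 arrays, both on the log2 scale less the median of the other 11 arrays, for the 8 tuft cell genes with chemosensing and eicosanoid genes (left), other tuft cell markers (middle) and mast cell markers (right). Rgs13, Gnat3, Trpm5, Bmx and Sh2d7 lie far beyond the bars, as do the mast cell markers Mcpt4, Fcer1a and Ms4a2, while Gfi1b, Il25 and Avil lie within them.

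The 8 genes did not vary as 1 group across arrays. Over the 28 pairs of genes, Pearson r on 12 arrays, 2 from each mouse, had a median of 0.25 and ran from -0.42 (Avil and Alox5ap) to 0.94 (Pou2f3 and Trpm5), and 7 pairs were above 0.5. Without the early biopsy of mouse 1755 (11 arrays), Pou2f3 and Trpm5 kept an r of 0.81 (rho 0.84) and Dclk1 and Trpm5 an r of 0.79 (rho 0.69). Pou2f3 and Dclk1 went from 0.79 to 0.63, and Pou2f3 and Sh2d6 from 0.58 to 0.24. Avil rose from 0.28 to 0.57 with Trpm5, from 0.35 to 0.51 with Pou2f3 and from 0.62 to 0.68 with Sh2d6. On the 11 arrays 6 pairs were above 0.5, and the median was 0.23. Gfi1b had an r of at most 0.30 with any of the other 7 on the 12 arrays and of at most 0.31 on the 11. Pou2f3, Trpm5 and Dclk1 had r above 0.5 with each other in both sets of arrays, and Gfi1b, Il25 and Alox5ap with none of the 8. The 8 genes are therefore not read here as 1 measure of tuft cells. Gfi1b (7.72 to 8.13) and Il25 (6.88 to 7.28) varied little, so their low r cannot show that they follow something else.

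**Figure D4:**
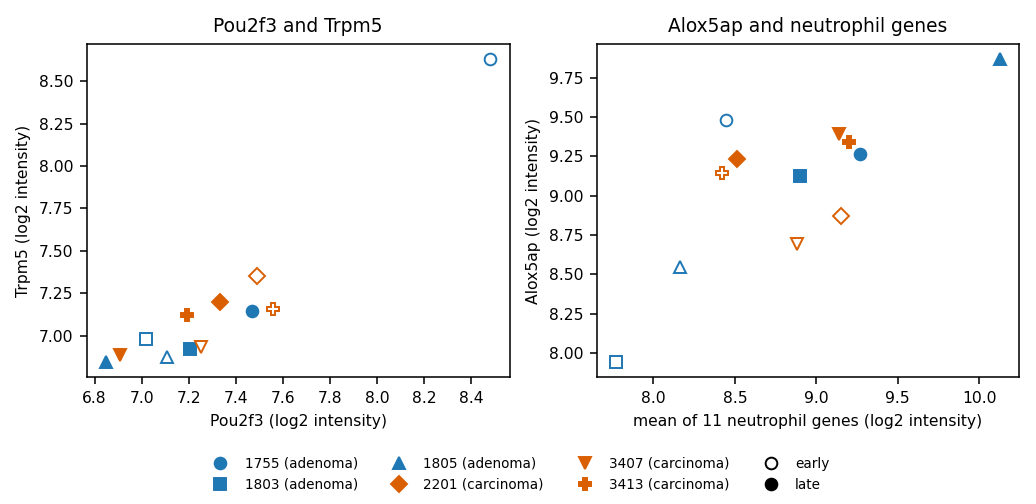
Left, Trpm5 against Pou2f3, and right, Alox5ap against the mean of 11 neutrophil genes, in log2 intensity; each point is 1 array (open, early; filled, late; blue, late adenoma; orange, late carcinoma). The early biopsy of mouse 1755 lies far from the other 11 arrays in the left panel, where r was 0.94 with it and 0.81 without it; in the right panel the late biopsy of mouse 1805 is the highest on both axes and the early one of mouse 1803 the lowest.

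The mean of the 8 genes, each less its own mean over 12 arrays, was 0.65 in the early biopsy of mouse 1755, 0.19 and 0.20 in the early and late biopsies of mouse 2201, and -0.30 to 0.092 on the other 9 arrays. The genes whose values were most like this mean, among 14050 that were no predicted genes, small RNAs, receptor families or dim, were Atp4a (r 0.93, rho 0.87), Mrpl24 (r 0.90, rho 0.85), Supt3 (r 0.90, rho 0.84) and Hacd4 (r 0.89, rho 0.91). Cdc34, Slc35g2, Gzmb and Fcer1a followed with r of 0.88 each. Without the early biopsy of mouse 1755, r was 0.84 for Atp4a and 0.92 for Hacd4 but 0.68 for Gzmb and 0.67 for Fcer1a. These are descriptions over 12 arrays of 6 mice, picked as the highest of many.

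For single genes, the 2 closest were Mcpt4 (r 0.95) and Fcer1a (r 0.95) for Pou2f3, Bst2 (r 0.97) and Gng13 (r 0.95) for Trpm5, and Pcdhb11 (r 0.92) and Foxc1 (r 0.91) for Dclk1. Without the early biopsy of mouse 1755, r was 0.84 for Mcpt4, 0.80 for Fcer1a and 0.78 for Bst2, but still 0.92 for Pcdhb11 and 0.91 for Foxc1. For Gng13 and Trpm5 rho was 0.48. Their r was 0.53 without the early biopsy of mouse 1755 and 0.045 without the 2 arrays farthest from the Trpm5 median. Avil was closest to Trit1 (r 0.96) and Gars (r 0.96), and Alox5ap to Lmcd1 (r 0.92) and Ctla2a (r 0.90). The closest to Gfi1b were Nfkb2 (r 0.87) and Pbld2 (r 0.86), to Il25 Get1 (r 0.88) and Tex13c1 (r 0.87), and to Sh2d6 Zfp839 (r 0.88) and Pam16 (r 0.86).

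The rest of the tuft cell program had no gene past the adjusted limma threshold, higher or lower, in late against early biopsies over all tumors, in adenoma or in carcinoma tumors. Of 13 chemosensing genes, 10 differed by less than 0, beside 57.9% of all genes, and 3 by more. Their median was -0.14, beside -0.020 for all genes, and without mouse 1755 -0.067, beside -0.025. An unadjusted limma p under 0.05 was found for 3 of the 13, beside 14.7% of all genes. Rgs13 was 1.21 ± 0.38 lower late (SE, limma adjusted p 0.27) and lower in 6 of 6 mice, with a difference of -3.39 in mouse 1755 and of -0.77 ± 0.41 in the other mice (SD, n = 5). Its early values were 10.41, 5.62, 7.15, 7.02, 6.01 and 6.74 in mice 1755, 1803, 1805, 2201, 3407 and 3413, and its late values 7.03, 5.24, 5.69, 6.48, 5.28 and 6.00. The late biopsy was the lower one in each mouse, and the early and late ranges overlapped.

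Among the eicosanoid genes, Alox5, the leukotriene C4 synthase Ltc4s and the prostaglandin D2 synthase Hpgds all had differences below 0, at -0.30, -0.13 and -0.56, against the 0.59 of Alox5ap (limma adjusted p 0.62, 0.395 and 0.34). Hpgds was lower late in 5 of 6 mice and the other two in 4 of 6. Alox5 differed by -1.65 in mouse 1755 and by -0.028 ± 0.40 on average in the other 5 mice (SD), and the median of the 3 genes was -0.30 with and -0.10 without mouse 1755. Of 23 other tuft cell markers, 13 differed by less than 0, beside 57.9% of all genes, and 10 by more (median -0.053, and -0.011 without mouse 1755). An unadjusted limma p under 0.05 was found for 5 of the 23, where 14.7% of all genes had one. Krt23, a keratin, was 0.57 ± 0.13 lower late and lower in 6 of 6 mice (limma adjusted p 0.223), and Bcl2l14, a Bcl-2 family gene, 0.43 ± 0.087 higher and higher in 6 of 6 (limma adjusted p 0.206). Siglecf and Cd24a were 0.18 and 0.22 lower late (limma adjusted p 0.275 and 0.319).

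In the type 2 circuit that Il25 addresses, 9 of 16 measured genes differed by more than 0, beside 42.1% of all genes, and 7 by less (median 0.038). Of the 16, 0 passed the adjusted threshold. At an unadjusted p under 0.05 in limma, 6 of the 16 passed, beside 14.7% of all genes. Retnlb, a goblet cell protein made under type 2 cytokines, was 0.72 ± 0.15 lower late and lower in 6 of 6 mice (limma adjusted p 0.206), with 11.22 ± 1.27 early and 10.50 ± 1.44 late (SD, n = 6 each). Il9, a type 2 cytokine, was 0.17 ± 0.064 lower in 6 of 6 (limma adjusted p 0.306), with a mean difference of -0.11 without mouse 1755. Il17ra, a receptor chain through which Il25 signals, was 0.15 ± 0.051 higher in 6 of 6 (limma adjusted p 0.274), and Rora, a factor that innate lymphoid cells need, 0.41 ± 0.14 higher in 5 of 6 (limma adjusted p 0.279). The mast cell list had 10 of 12 differences below 0, beside 57.9% of all genes (median -0.67, and -0.39 without mouse 1755), with 0 genes past the adjusted threshold.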

How the data were processed

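RNA of colon tumor biopsies was measured on 12 Affymetrix mouse gene arrays, an early and a late one from each of 6 mice. The deposited values were read as log2 intensities from their range, since neither the unit nor how the authors summarised and normalised them is given in the sources used here; per the labels' protocols, 300 ng of RNA per biopsy was labelled and biopsies were kept in RLT buffer or RNALater, and which biopsy went into which was not used here. The arrays have 35557 probe sets. Of these, 12147 have no gene symbol, 1621 more than 1, and the 21789 with exactly 1 were kept. For 999 genes with more than 1 such probe set the one with the highest mean over 12 arrays was used, which left 19938 genes. Gene identifiers of 19856 genes matched a RefSeq table, which changed 0 symbols. The probe sets of the 8 genes are 10592705 (Pou2f3), 10481304 (Gfi1b), 10569399 (Trpm5), 10366774 (Avil), 10492136 (Dclk1), 10527638 (Alox5ap), 10415127 (Il25) and 10545425 (Sh2d6).

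Tests used lmFit and eBayes of limma 3.58.1 under R 4.3.3 (2-sided, Benjamini-Hochberg over all genes of a comparison, threshold 0.05). Late against early, and the changes by pathology with their difference, had mouse as a fixed block (5 and 4 residual degrees of freedom). Carcinoma against adenoma at each time had mouse as a random block (duplicateCorrelation, consensus 0.286; 8 degrees of freedom). The pairs come from the same animal, and the 2 arrays of a mouse had deviations from the time means that correlated at 0.110 to 0.527 in 6 of 6 pairs. In 5 of 6 mice the early array was matched best by the late array of the same mouse. Mouse 2201, with the lowest value (0.110), was the exception. The fits were tested on simulated data. Mice are the replicates, 3 per pathology, and their number limits the precision.

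The 8 genes, the 21 other lists (211 genes, 196 measured; the rest are not analysed here) and the rules were chosen with earlier results of these data known. By rule the 8 genes were named in every comparison, up to 4 genes per other list by the smallest unadjusted p for late against early, all eicosanoid genes, Epcam and Krt8. Likeness took the highest Pearson r over 12 arrays among genes above the 25th percentile of the mean, 8 for the mean of the 8 genes and 2 for each gene. Other genes named in the early biopsy of mouse 1755 were chosen after their values were seen. Alternatives were quantile normalization, arrays centred on their median, the mean of all probe sets of a gene, dim genes left out, no mouse block, the run of sample numbers as a term, a trended robust prior, and each mouse left out.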

Additional observations from a re-analysis of the deposited data

Results flagged for a closer look

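In each of the 8 tuft cell genes, the 6 early values, the 6 late values and the 6 differences within mice were searched for a highest or lowest mouse far from the others by Dixon's criterion, 24 groups in all. Chance flags about 1 in 20 groups, and 5 of the 24 had such a mouse. Pou2f3 and Trpm5 had it in the early biopsy of mouse 1755, the first at 8.48 against 7.02 to 7.56 in the other 5 early biopsies and the second at 8.63 against 6.87 to 7.35. The Trpm5 difference of the same mouse, -1.49, was the lowest against -0.15 to -0.028. These 3 share 1 array. Avil was lowest in the early biopsy of mouse 1805, at 10.45 against 11.25 to 11.59. Alox5ap was highest in the late biopsy of mouse 1805, at 9.87 against 9.13 to 9.40. That array held the highest value of 7 of the 11 neutrophil genes, of 6 of 11 epithelial, 5 of 8 neuronal, 4 of 5 platelet and 3 of 5 erythroid genes, and of 14.6% of all genes.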

How the results depend on the processing

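Each of the 48 differences of the 8 tuft cell genes was recomputed under 13 alternatives, 624 values in all. None passed the adjusted limma threshold, the smallest adjusted p being 0.0861 (Avil, carcinoma against adenoma in late biopsies), and 37 had the sign turned. With the run of sample numbers as a term, Gfi1b came to 0.042 over all tumors, 0.00031 in adenoma, 0.042 in carcinoma and 0.16 for carcinoma against adenoma in early biopsies, Dclk1 to 0.39 over all tumors and 0.32 in early biopsies, Il25 in carcinoma to 0.039 and Sh2d6 over all tumors to 0.11. Over all tumors and in carcinoma, the fit with this term returns the mean of the 2 pairs within 1 run. In adenoma and in early biopsies the term rests on mouse 2201 against the other carcinoma mice. Il25 in carcinoma was 0.012 after quantile normalization, and Il25 between pathologies in late biopsies -0.043 with arrays centred. The cause was not tested.

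The other 27 arose when 1 mouse was left out. The ranges then were, over all tumors, -0.17 to 0.15 for Dclk1, -0.017 to 0.081 for Il25 and -0.12 to 0.15 for Sh2d6. In adenoma they were -0.025 to 0.22 for Il25 and -0.52 to 0.030 for Sh2d6, and in carcinoma -0.087 to 0.042 for Gfi1b and -0.053 to 0.039 for Il25. For the difference of changes they were -0.25 to 0.35 for Pou2f3, -0.035 to 0.69 for Trpm5 and -0.23 to 0.013 for Il25. Between pathologies they were -0.36 to 0.37 for Pou2f3, -0.10 to 0.066 for Gfi1b, -0.61 to 0.55 for Dclk1, -0.66 to 0.22 for Trpm5, -0.11 to 0.66 for Alox5ap and -0.31 to 0.14 for Sh2d6 in early biopsies. In late biopsies they were -0.19 to 0.12 for Pou2f3, -0.24 to 0.13 for Alox5ap and -0.058 to 0.048 for Il25. Avil over all tumors ran from -0.45 to -0.31 and Alox5ap from 0.45 to 0.75.

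Over all genes, the 25 called in adenoma became 57 with arrays centred, 13 with dim genes left out, 2 with no replicate block and 0 with the run as a term, and 0 to 78 with 1 mouse left out. The count without the replicate block changed no call of the 8 genes. With 1 mouse left out, the counts over all tumors ran from 0 to 2, in carcinoma from 0 to 1, and between pathologies from 0 to 67 in early biopsies (67 without mouse 1803) and from 0 to 395 in late ones (395 without mouse 1803). Where 1 mouse is left out, 2 remain in its pathology and the spread is pooled over the others.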

Other observations

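Outside the lists, the early biopsy of mouse 1755 held further genes more than 1 log2 above every other array, named here after their values were seen and with no test. Pla2g4c, a phospholipase that frees fatty acids from membrane lipids, was at 12.10 there and at most 7.19 elsewhere, the widest gap of all genes on that array. Genes induced by interferon were among them: Oas2 was at 10.57 (at most 8.44 elsewhere), Ddx60 at 10.16 (8.08), Ifit1 at 10.98 (9.40), Irf7 at 12.20 (10.77) and Mx1 at 8.04 (6.74). The granule proteases Gzma and Gzmb were at 8.07 (6.07) and 11.04 (9.05), and Mcpt8, a protease of basophils, at 9.11 (6.54). Bst2, the gene closest to Trpm5 across arrays (r 0.97), is itself induced by interferon. That r includes the early biopsy of mouse 1755, so Bst2 is not a separate observation. Without this array r was 0.78, and without the 2 arrays farthest from the Trpm5 median 0.68.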
